A study of Mus musculus with 6 samples.

Results

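The cytosolic nucleic acid sensors and nucleases described here are 10 of the 19831 genes listed for mouse inguinal adipose tissue (iAT) at postnatal day 6. They were taken by symbol: the RNA sensors *Ddx58*, *Ifih1* and *Dhx58*, the Z-form nucleic acid sensor *Zbp1*, and the enzymes that degrade or alter sensor ligands, *Trex1*, *Samhd1*, *Adar*, *Rnaseh2a*, *Rnaseh2b* and *Enpp1*. All 10 had a mean of at least 10 normalized counts, as did 15309 genes in all. RNA of 3 wild-type and 3 Npffr1-KO samples was sequenced, all taken from the same fat depot at the same age. The paper that presents the data cites earlier studies for the sequencing. It describes its own mice as male C57BL/6 in specific-pathogen-free housing, without naming Npffr1-KO mice. Whether that description covers these samples is not stated. *Npffr1* encodes a receptor for RFamide neuropeptides. The labels name neither the deleted allele nor the sex, and do not say whether each sample came from 1 animal, so the spread between libraries may be technical. The deposited table gives 1 normalized count per genotype and gene, with no replicate values. Its ratios therefore carry no error and no test, and a gene was counted as past the ratio, higher or lower, from 0.32 in size on the log2 scale, which is 25% more than the lower of the values.

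Cells read nucleic acids in the cytosol as a sign of infection or damage. RNA helicases signal through the mitochondrial adaptor MAVS, DNA is read by cGAS and STING, and both routes end in type I interferon, which in turn induces many of the sensors. Nucleases, a dNTP hydrolase and an RNA-editing enzyme keep the cell's own nucleic acids below the level that sensors detect, and their loss causes inherited interferon-driven inflammation. In fat, RNA and DNA leaking from mitochondria is a ligand of these sensors.

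*Npffr1* itself had 1, 0 and 5 reads in the 3 wild-type libraries and 0 in each of the 3 Npffr1-KO libraries. The direction is that of the labels, but 6 reads in all leave no fold to be given. The tissue carried its fat cell markers at high level, with *Fabp4* at 156285 and *Adipoq* at 37027 normalized counts in wild-type. The libraries were close in depth, with size factors of 0.916 to 1.04 and listed values that sum to 23137343 normalized counts for wild-type and 23640005 for Npffr1-KO. The muscle enzyme gene *Ckm*, named after its reads were seen, had 2, 3 and 2 reads in wild-type and 215, 1 and 6 in Npffr1-KO, so that 1 library, Npffr1-KO library 4, held nearly all of them.

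Per kb of listed gene length, *Samhd1* was the most abundant of the 10 genes and *Enpp1* the least. *Samhd1*, which hydrolyses dNTPs, stood at 1159 normalized counts per kb in wild-type and 1275 in Npffr1-KO. *Enpp1* stood at 22.9 and 18.9, so that the ratio of *Samhd1* to *Enpp1* was 50.6 in wild-type and 67.3 in Npffr1-KO. In wild-type the order below *Samhd1* was *Trex1*, *Rnaseh2b*, *Ddx58*, *Adar*, *Rnaseh2a*, *Zbp1*, *Ifih1* and *Dhx58*. In Npffr1-KO, *Zbp1* was at 285 per kb beside *Adar* at 289 and *Rnaseh2a* at 277, while in wild-type it was at 203 against 284 and 243. With 1 value per genotype, neighbours in this order cannot be separated from the spread between libraries.

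**Figure D1:**
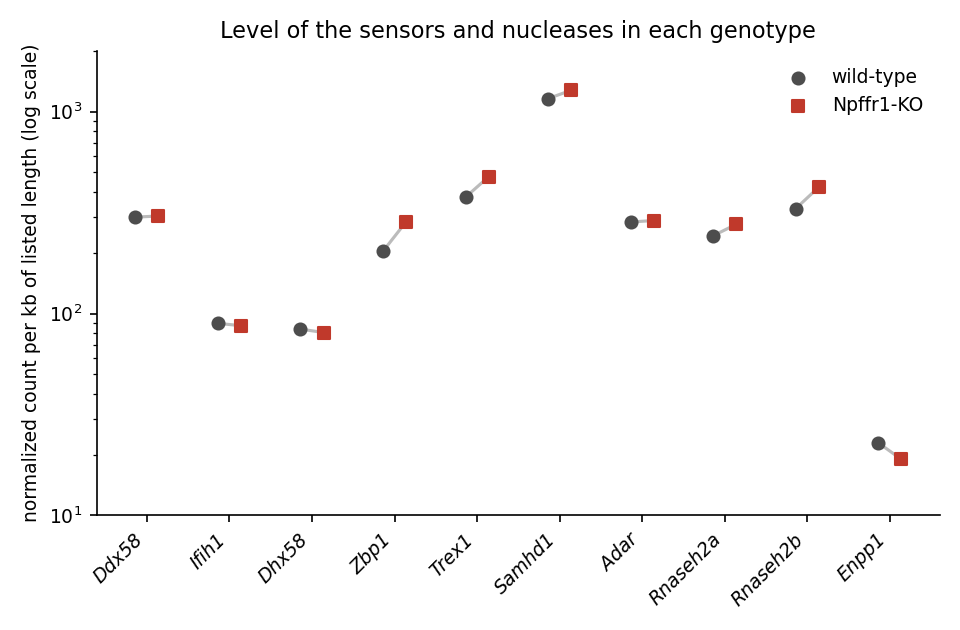
Normalized count per kb of listed gene length (log axis) for the 10 genes, with 1 deposited value for wild-type (circle) and 1 for Npffr1-KO (square), joined by a line. *Samhd1* lies highest in both genotypes, at 1159 and 1275, *Enpp1* lies lowest, and the widest gap between the genotypes is that of *Zbp1*.

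Of the 10 genes, 3 were past the ratio as higher in Npffr1-KO and 0 as lower. Among all genes with a mean of at least 10, 12.0% were past it in the higher and 11.6% in the lower direction. The median log2 ratio of the 10 genes was 0.08, against 0.01 over all genes, and 7 of the 10 ratios were above 0. The genes past the ratio were *Zbp1*, *Rnaseh2b* and *Trex1*. The 3 RNA helicases and *Adar* all lay within 0.06 of 0 on the log2 scale.

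The helicases bind viral or misplaced double-stranded RNA. *Ddx58* (gene ID 230073), which encodes RIG-I and reads short RNA with a 5′ triphosphate, stood at 1483 normalized counts in wild-type and at 1503 in Npffr1-KO, a log2 ratio of 0.02. *Ifih1* (gene ID 71586) encodes the sensor of long double-stranded RNA and had 487 and 474, a log2 ratio of -0.04. *Dhx58* (gene ID 80861) encodes the third helicase, which lacks the signalling domains of the other two, and had 203 and 195, a log2 ratio of -0.06. The proportions among the 3 genes were likewise near in both genotypes, with *Ddx58* at 3.36 times the *Ifih1* level per kb in wild-type and 3.49 times in Npffr1-KO.

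*Ddx58* and *Ifih1* were the genes among the 7 with a promoter window in RefSeq (GRCm38.p6, 250 bases before to 50 after the start) that held the spaced repeat GAAANNGAAA on either strand, the core of the element through which interferon acts. The sites are shown because they are a sequence feature these sensors share, with the repeat in capitals, read 5′ to 3′ on the strand of the gene.
Ddx58, chr4:40239804-40239833, minus strand: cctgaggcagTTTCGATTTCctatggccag
Ifih1, chr2:62646206-62646233, minus strand: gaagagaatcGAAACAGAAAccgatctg
The repeat began 3 bases into the *Ddx58* transcript, on the opposite strand, and 33 bases into that of *Ifih1*, on the gene's strand. It was present in 3.44% of all 32851 windows. Per gene with a window, counting a repeat in any window, it was in 5 of 19 genes of the interferon-induced list. By the same count it was in 7 of 11 other RNA sensors. The share per window and the counts per gene are not like for like. The windows of *Samhd1*, *Adar*, *Rnaseh2a*, *Trex1* and *Enpp1* did not hold these letters. *Dhx58*, *Zbp1* and *Rnaseh2b* had no window in the table.

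Reads per library were estimated for 4 of the 10 genes, as the most likely set of whole reads that adds up to the deposited values (the weight is the share of the likelihood that this set held among the sets found). No gene of the 10 had a single possible set, and the estimate leans towards sets in which libraries of a genotype are alike, so the spreads given here may be too small. The deposited ratio entered the weight, so genotype means, changes and tests from estimated reads are not independent of it, here and below. *Ifih1* had an estimated 480, 518 and 494 reads in wild-type and 512, 477 and 409 in Npffr1-KO (weight 0.998, best of 3075 sets). *Dhx58* had 233, 208 and 183 reads in wild-type and 218, 198 and 161 in Npffr1-KO (weight 1.0, best of 9 sets). In both genes the libraries of the genotypes overlapped. For *Ifih1*, normalized reads were 487 ± 22.0 (SD, n = 3) in wild-type and 474 ± 24.5 (SD, n = 3) in Npffr1-KO, with p = 0.60 in a two-sided exact permutation test, in which 3 against 3 cannot go below 0.10. For *Dhx58* they were 203 ± 21.7 and 195 ± 17.7 (SD, n = 3 each; exact permutation p = 0.70). In a limma fit over the 6459 genes whose reads were estimated, the log2 change was -0.04 for *Ifih1* (95% interval -0.21 to 0.13, adjusted p = 0.90) and -0.06 for *Dhx58* (-0.40 to 0.28, adjusted p = 0.93). That fit called 8 genes, or 0.124%, and none of the 3 sensors and nucleases in it passed. At an unadjusted p of 0.05 it called 12.6% of the genes, and again 0 of these 3.

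*Zbp1* (gene ID 58203) encodes a sensor of left-handed Z-RNA and Z-DNA that can start necroptosis, an inflammatory form of cell death. It had the highest ratio of the 10 genes, with a normalized count of 279 for wild-type and 390.2 for Npffr1-KO, or 1.40-fold. The best set of reads was 280, 256 and 313 in wild-type and 394, 351 and 405 in Npffr1-KO. In this set every Npffr1-KO library lay above every wild-type library, as was so for 8.73% of the 7088 genes with a weight of at least 0.95. The set had a weight of 0.98 among 177, under the 0.99 used for the other genes, and the limit of 0.95 that admits it was set with these reads in view. The ratio itself entered the weight, so the separation of the genotypes is not independent of the deposited ratio. In this set, normalized reads were 277 ± 30.6 in wild-type and 391.9 ± 45.1 in Npffr1-KO (SD, n = 3 each; exact permutation p = 0.10, the smallest possible). With these genes included, limma gave *Zbp1* a log2 change of 0.50 (SE 0.13, 95% interval 0.22 to 0.78), with an unadjusted p of 0.00177 and an adjusted p of 0.0973. It called 22 genes, or 0.31%, and *Zbp1* was not one of them. Leaving out each library in turn gave log2 changes of 0.41 to 0.58 and adjusted p-values of 0.0881 to 0.452.

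**Figure D2:**
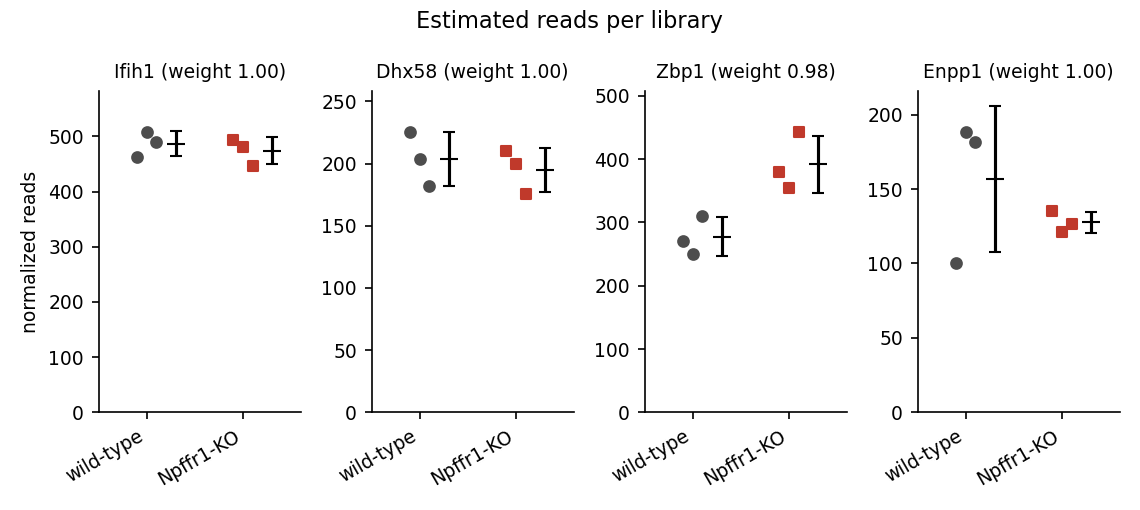
Estimated reads per library divided by the library's size factor, for the 4 genes with an estimate (points, 3 wild-type circles and 3 Npffr1-KO squares), with mean and SD beside them and each axis starting at 0. The genotypes overlap for *Ifih1*, *Dhx58* and *Enpp1* and do not for *Zbp1*, and 1 wild-type library is low for *Enpp1*.

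Without regard to gene length, partners of *Zbp1* in cell death all had smaller ratios than *Zbp1*. Of 7 listed partners, 1 was past the ratio as higher and 0 as lower, beside 12.0% and 11.6% of all genes. The partner past it was *Tnfaip3*, which encodes the ubiquitin-editing enzyme A20. *Tnfaip3* stood at 886 normalized counts in wild-type and at 1123 in Npffr1-KO (log2 ratio 0.34). *Casp8*, the protease that restrains necroptosis, had 2039 and 1981, and the kinase gene *Ripk1* had 1115 and 1029.5. The 7 ratios ran from -0.12 to 0.34 with a median of 0.13. Set against genes of like length, *Tnfaip3* was at 0.41, above *Zbp1* at 0.37.

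*Trex1* (gene ID 22040) encodes the main exonuclease of cytosolic DNA. It stood at 401 normalized counts in wild-type and at 506 in Npffr1-KO (1.26-fold, log2 ratio 0.34), just past the limit. This value may not stem from *Trex1* alone. Of the 1116 stretches of 31 bases in its GENCODE M21 transcripts, 97.6% also lie in transcripts of *Atrip*. *Atrip* is a DNA damage gene whose read-through transcripts contain *Trex1*. The annotation behind the deposited values is not given in the sources used here, and how reads were divided between the genes was not tested. *Atrip* had 305 and 347 normalized counts, a log2 ratio of 0.19. *Samhd1* (gene ID 56045) had 4567 and 5023 normalized counts, 1.10-fold. In wild-type, 834 of the 19831 genes had a higher count than *Samhd1*.

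RNase H2 removes RNA paired with DNA, and single ribonucleotides built into DNA. Its catalytic subunit gene *Rnaseh2a* (gene ID 69724) stood at 496 normalized counts in wild-type and at 566 in Npffr1-KO, 1.14-fold. The gene of its second subunit, *Rnaseh2b* (gene ID 67153), had 482 and 616, 1.28-fold. *Rnaseh2c*, which encodes the third subunit and was added to the named genes after its value was seen, had 420 and 529, a log2 ratio of 0.33. The 3 subunit genes are short, at 2044, 1457 and 646 bases, a property that went with higher ratios in the whole table. Set against genes of like length, *Rnaseh2c* was at 0.07 and no longer past the ratio. Of the 31-base stretches of *Rnaseh2a*, 15.1% occur in transcripts of other genes on the same strand.

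*Adar* (gene ID 56417) encodes the enzyme that edits adenosine to inosine in double-stranded RNA and so hides it from the helicases. It stood at 1673 normalized counts in wild-type and at 1701 in Npffr1-KO, 1.02-fold. On the opposite strand 15.4% of its 31-base stretches belong to *Chrnb2*, which stood at 34.0 normalized counts in wild-type and at 57.1 in Npffr1-KO. Whether reads were divided between them was not tested.

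*Enpp1* (gene ID 18605) encodes an ectoenzyme that hydrolyses cGAMP, the messenger between cGAS and STING. It was the only one of the 10 genes with a ratio below -0.1, with a normalized count of 156 for wild-type and 129 for Npffr1-KO, a log2 ratio of -0.27. The estimated reads were 104, 192 and 183 in wild-type and 140, 120 and 116 in Npffr1-KO (weight 1.0, better of 2 sets). The first wild-type library lay below all of the Npffr1-KO libraries, and the other two wild-type libraries lay above them. Normalized reads were 157 ± 48.8 in wild-type and 128 ± 6.96 in Npffr1-KO (SD, n = 3 each; exact permutation p = 0.40), and the limma change was -0.24 (95% interval -0.75 to 0.27, adjusted p = 0.75). Without the first wild-type library the change was -0.53 with an adjusted p of 0.31, and over all alternatives adjusted p ran from 0.31 to 0.98. The related gene *Enpp2*, which encodes the lipid enzyme autotaxin, had 3751 and 4342 normalized counts.

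The ratios of the 10 genes followed gene length, as did those of the whole table. The 4 shortest genes, *Trex1*, *Zbp1*, *Rnaseh2b* and *Rnaseh2a*, had the 4 highest ratios, and the longest, *Enpp1*, had the lowest. Spearman's rho between ratio and length was -0.81 over the 10 genes and -0.38 over the 15309 genes. These are correlations across genes that share the same 6 libraries and are given as a description. The median log2 ratio was 0.15 for the 4963 genes of at most 2044 bases, the length of *Rnaseh2a*, and -0.05 for the 10346 longer ones. Of the shorter genes 21.9% were past the ratio as higher, and of the longer ones 7.26%.

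When each ratio was set against the median of genes of like length (20 classes), 1 of the 10 genes stayed past the ratio. The centred log2 ratio was 0.37 for *Zbp1*, 0.24 for *Rnaseh2b* and 0.13 for *Trex1*. It was 0.20 for *Samhd1*, 0.13 for *Adar*, 0.12 for *Ddx58*, 0.11 for *Rnaseh2a* and 0.07 for *Ifih1*. The Spearman correlation of the centred ratio with length was -0.53 over the 10 genes. *Ifih1* changed sign under this centring, and 8 of the 10 genes were above 0. The genes below 0 were *Enpp1* at -0.15 and *Dhx58* at -0.09. Over all genes the centring turned 1839 higher and 1782 lower into 1256 and 1769. What the length trend stems from was not tested.

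**Figure D3:**
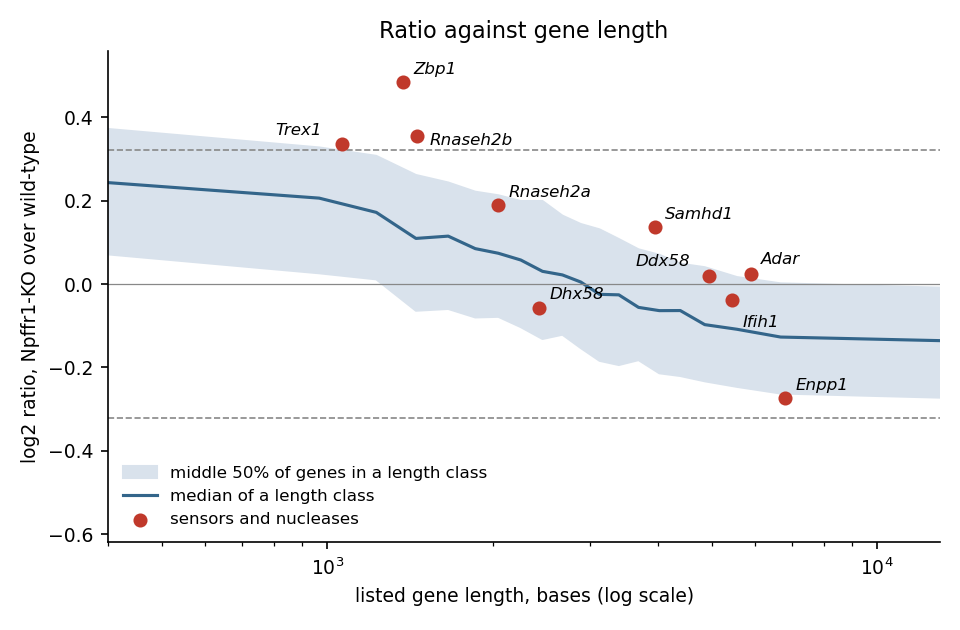
Log2 ratio of the deposited values, Npffr1-KO over wild-type, against listed gene length in bases (log axis) for the 10 genes (points), with the median (line) and middle 50% (band) of all genes with a mean of at least 10 in 20 length classes. Dashed lines mark 0.32 in either direction. The values of *Zbp1*, *Rnaseh2b* and *Trex1* lie above the upper line, and *Zbp1* stands farthest above the genes of its length.

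Of the 21 signalling genes that act with the RNA helicases, 1 was past the ratio as higher and 2 as lower, beside the 12.0% and 11.6% of all genes, with a median log2 ratio of -0.02. *Rnf125*, whose ubiquitin ligase marks RIG-I for degradation, stood at 242 normalized counts in wild-type and at 137 in Npffr1-KO (log2 ratio -0.82). *Trim25*, a ubiquitin ligase that activates RIG-I, had 2436 and 1700.2 (-0.52), and the kinase gene *Ikbke* had 855 and 1139 (0.41). The most abundant, *Ddx3x* and *Dhx9*, RNA helicase genes, had log2 ratios of 0.00 and -0.19. *Rnf125* and *Trim25* thus both had lower values, while *Ddx58* itself was at 1.01-fold. A further ligase gene of the list, *Rnf135*, named after its value was seen, had 341 and 336 (-0.02). The estimated reads of *Rnf125* were 176, 291 and 282 in wild-type against 130, 144 and 119 in Npffr1-KO, so that the genotypes did not overlap. All Npffr1-KO libraries lay below all wild-type ones for 10.4% of the 7088 genes with a weight of at least 0.95. The limma change of *Rnf125* was -0.84 (95% interval -1.28 to -0.39), with an adjusted p of 0.105 that ran from 0.0462 (without wild-type library 1) to 0.522 over the alternatives.

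Among 15 other RNA sensors and effectors, 1 was past the ratio as higher and 1 as lower, with a median of -0.05. The shares over all genes were 12.0% and 11.6%. *Oas1a*, which encodes a synthase of the messenger 2-5A, stood at 114 normalized counts in wild-type and at 151 in Npffr1-KO (0.41). *Oasl2* was at 849 and 729.6. Centred on genes of like length, 1 of the 15 was higher and 0 lower, and *Oas1a* was at 0.3212, short of the limit of 0.3219. Interferon-induced and interferon pathway genes gave 2 higher and 1 lower of 25, beside the same shares of all genes, with a median of 0.09. *Ifi27l2a*, a mitochondrial interferon-induced gene, had 961 and 1422 (0.57), the ubiquitin-like modifier gene *Isg15* had 194 and 243 (0.33), and *Ifi44* had 178 and 135 (-0.40). *Jak1* and the receptor gene *Ifnar1*, the most abundant of this list, had log2 ratios of 0.09 and -0.01. Centred on genes of like length, 1 of the 25 was higher and 1 lower, with a median of 0.03. *Ifi27l2a* was then at 0.30 and *Isg15* at 0.06, neither past the ratio.

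Of 24 DNA sensors and their partners, 4 were past the ratio as higher and 0 as lower, beside the 12.0% and 11.6% of all genes, and the median was 0.16. Of their ratios 18 were above 0, as were 7835 of the 15309 over all genes. *Pycard*, the inflammasome adaptor, stood at 375 normalized counts in wild-type and at 561 in Npffr1-KO (0.58). *Xrcc6*, a subunit of the Ku heterodimer, had 528 and 749.99 (0.51), *Pyhin1* had 594 and 806 (0.44), and *Banf1*, whose product coats DNA and bars cGAS from it, had 1963 and 2595 (0.40). The chromatin genes *Hmgb1* and *Hmgb2* were the most abundant at 12736 and 3864 in wild-type, with log2 ratios of 0.11 and 0.27. Centred on genes of like length, 3 of the 24 were higher and the median was 0.13.

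Other nucleases and hydrolases gave 4 higher and 2 lower of 30 with a mean of at least 10, of 32 listed, with a median of 0.15. All genes had shares of 12.0% higher and 11.6% lower. The mitochondrial nuclease gene *Endog* stood at 340.2 normalized counts in wild-type and at 485.5 in Npffr1-KO (0.51), and *Ttc37*, of the cytosolic RNA exosome's SKI complex, had 175 and 230.1 (0.39). The lysosomal RNase gene *Rnaset2a* had 3401 and 4365 (0.36). *Nt5e*, which encodes the ecto-nucleotidase CD73 that acts on AMP, a product of cGAMP breakdown, had 228 and 139 (-0.72), and *Enpp3*, a relative of *Enpp1*, had 621 and 426 (-0.54). *Nt5e* had an estimated 236, 249 and 223 reads in wild-type against 157, 158 and 90 in Npffr1-KO, without overlap. A lack of overlap in this direction was seen in 10.4% of the 7088 genes with a weight of at least 0.95. Its limma change was -0.79 (95% interval -1.21 to -0.36), and its adjusted p of 0.115 ran from 0.0787 to 0.494 over the alternatives. Centred on genes of like length, this list had 1 gene higher and 3 lower, against 4 and 2 without centring. Over all 15309 genes the centred counts were 1256 higher and 1769 lower.

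**Figure D4:**
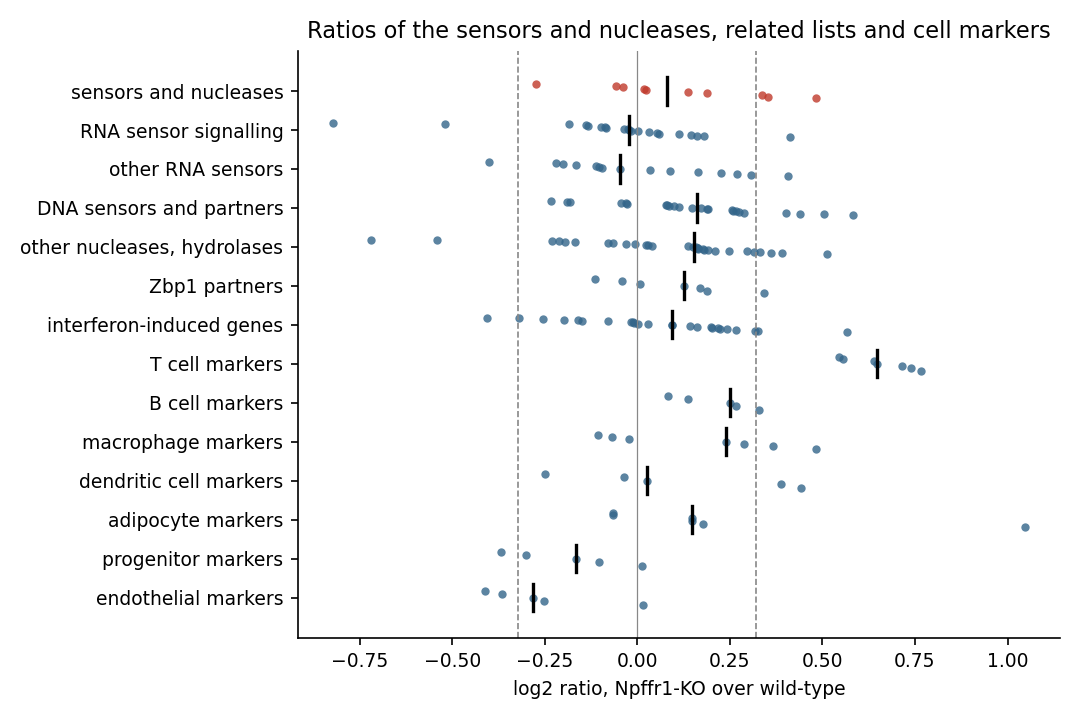
Log2 ratio of the deposited values, Npffr1-KO over wild-type, for each gene with a mean of at least 10 (points) in the 10 sensors and nucleases, 6 related lists and 7 cell type marker lists, with the median of each list (bar) and 0.32 in either direction (dashed lines). The sensors and nucleases lie between -0.27 and 0.48, and all 7 T cell markers lie between 0.55 and 0.77.

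Beside the marker counts below, 12.0% of all genes with a mean of at least 10 were past the ratio as higher and 11.6% as lower. With length centring, 1256 of these 15309 genes were higher and 1769 lower. All 7 T cell markers were past the ratio as higher, at log2 ratios of 0.55 to 0.77, with their summed value at 7739.9 in wild-type against 12221 in Npffr1-KO. The 7 macrophage markers ran from -0.11 to 0.48 with a summed value of 20368 and 23812, and 2 were past the ratio. The 5 B cell markers ran from 0.08 to 0.33 (summed 9959 and 11686; 1 past the ratio), and the 5 dendritic cell markers from -0.25 to 0.44 (summed 1267 and 1347; 2 past it). Centred on genes of like length, all 7 T cell markers, 0 of the 7 macrophage markers, 0 of the 5 B cell markers and 2 of the 5 dendritic cell markers were past it. Of 5 endothelial markers 2 were past the ratio as lower (median -0.28), as was 1 of 5 progenitor markers (median -0.17). Of 6 adipocyte markers 1 was higher, *Lep*, with a median of 0.15. Thermogenic genes gave 5 of 6 higher (median 1.62), muscle genes 4 of 4 (median 0.75) and proliferation genes 3 of 7 (median 0.25). With length centring, 0 endothelial markers and 1 progenitor marker were lower (medians -0.26 and -0.24). The adipocyte markers then had 1 higher and 1 lower (median -0.03). In the thermogenic, muscle and proliferation lists 6, 3 and 3 genes were then higher. Without Npffr1-KO library 4, which held most *Ckm* reads, the limma change was 0.52 for *Zbp1*, -0.28 for *Enpp1*, -0.07 for *Ifih1* and -0.11 for *Dhx58*, and none passed (adjusted p of 0.189, 0.762, 0.845 and 0.878). The other 6 genes have no values per library, so theirs cannot be given without it. Immune cells express *Zbp1*, *Trex1* and *Samhd1*, and the part of the cell markers in the ratios of these genes was not tested. In bulk tissue, fewer cells of a type and less RNA per cell cannot be told apart.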

How the data were processed

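Total RNA was extracted from iAT with TRIzol. The submitters' processing notes name Bowtie2, RSEM and DESeq2, without role or version, and the genome build is not given in the sources used here. The signal values used here are those the authors deposited: 1 DESeq2-normalized count per gene and genotype, with the gene length. Their mean is the mean over the 6 libraries, and their ratio is shrunken: among genes with known reads it was a median of 0.726 of the log2 ratio of the reads at means of 10 to 30 and 0.915 at 60 to 150. The authors' columns of fold change, p-value, adjusted p and direction, and a second table that repeats some genes, were not used.

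From the values, log2 ratios were computed for genes with a mean of at least 10. Genes with a single read gave the size factor and genotype of each library, since all single-read genes of a library lean towards 1 genotype. The libraries were not tied to sample numbers and are numbered by size factor. Whole reads that add up to the mean were searched. The plan was to use genes with exactly 1 match (7918 of 19831 genes), which holds 0 of the 10 genes. After the data were seen, a lattice search for means up to 600 was therefore added, which weights each match by a negative binomial likelihood and by the ratio of the values. A weight of at least 0.99 was needed (10083 genes), and 0.95 (10712 genes) was tried with *Zbp1* in view, after narrower search ranges had been tried. On 400 genes of known reads with 4 digits dropped, 98.7% of the accepted sets were right, but such genes have means of up to 60. Of genes with means of 450 to 600, 7.5% were accepted, favouring those with little spread. *Trex1*, *Rnaseh2a* and *Rnaseh2b* were not accepted, and *Ddx58*, *Adar* and *Samhd1* lay above the search. Tests were exact permutation tests and limma 3.58.1 with trend on log2(normalized reads + 1) for means of at least 5, with Benjamini-Hochberg adjustment. The limma plan excluded a fit that holds no gene of interest, so this fit departs from it. Scripts were tested on simulated data.

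The 10 genes and all lists were chosen with earlier results of these data known. Named genes are the 10, *Npffr1*, genes with shared sequence, and of each related list at most 4 past the ratio (0.32 on the log2 scale), largest first, and the 2 of highest mean. The values of 1 gene that this rule names are not reported here. Intervals cover counting error and the spread between these libraries only.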

Additional observations from a re-analysis of the deposited data

How the results depend on the processing

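Over pseudocounts of 1 and 10, centring on all genes, no filter on the mean and a mean of at least 50, 3 of the 10 genes were higher and 0 lower; with ratios centred on genes of like length 1 was higher, and at 1.5-fold 0. In the related lists 13 higher and 6 lower became 8 and 6 with length centring and 0 and 2 at 1.5-fold, where 425 and 477 of all genes remained past the ratio. The limma count of 8 was 18 with no filter on the mean, 3 without size factors, 10 with exactly 1 match and 22 at a weight of 0.95. Leaving out 1 library gave 3 to 13: 13 without wild-type library 1, 3 without wild-type library 2, 3 without Npffr1-KO library 4 and 4 without Npffr1-KO library 6; the cause was not tested. None of these alternatives brought *Ifih1*, *Dhx58* or *Enpp1* past an adjusted p of 0.05, and neither did leaving out 1 library for *Zbp1*, for which the other alternatives were not run. No paired analysis was possible because the libraries recovered from the table carry no replicate number.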
